A study of Homo sapiens with 51 samples.

Results

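Integrins and laminins were followed at the RNA level while H1 human embryonic stem cells, an established cell line, were treated with BMP4 alone or with Activin and BMP4. The set held every protein-coding gene of the count table whose symbol names an integrin alpha or beta subunit or a laminin alpha, beta or gamma chain. This gave 38 genes of 58051 rows, made up of 18 integrin alpha, 8 integrin beta, 5 laminin alpha, 4 laminin beta and 3 laminin gamma genes. After the filter on low counts 33 of the 38 were among the 19603 genes tested, and ITGAD, ITGAL, ITGAX, ITGB7 and LAMB4 were not. There were 17 groups of 3 libraries. In 8 groups the cells received BMP4 at 50 ng/mL for 1, 6, 12, 24, 36, 48, 72 or 96 h, while in 8 others 100 ng/mL Activin and 10 ng/mL BMP4 were given together for the same times. The remaining group was untreated, in mTeSR1 maintenance medium. All treated cells were in TeSR E5 medium with insulin, 20 ng/mL FGF2 and an additive spelled LY29004 in the labels. The conditions therefore differ in Activin and in the BMP4 dose, and treated cells differ from untreated cells in medium as well. The cells grew on growth factor-reduced Matrigel, a basement membrane extract that itself contains laminin protein, and RNA counts do not register that protein.

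Integrins are cell surface receptors made of 1 alpha and 1 beta subunit, and the pair decides which matrix protein is bound. Laminins are secreted as trimers of 1 alpha, 1 beta and 1 gamma chain and form the sheet on which a basement membrane is built. Human pluripotent stem cells are known to hold on to laminin mainly through the pair of ITGA6 and ITGB1, and cells that leave an epithelium during gastrulation change both their integrins and the matrix they make.

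The 51 libraries held 22.8 to 30.4 M counts (median 24.9 M). Levels are given as CPM, the count per M counts of the scaled library total, and calls needed both a change of at least 2-fold and a Benjamini-Hochberg adjusted p under 0.05, over all genes tested, from the quasi-likelihood test of edgeR. Log2 fold changes carry a standard error (SE) and means a standard deviation (SD, n = 3). The labels give triplicates and do not say whether these were separate cultures, so the p-values measure the spread between these libraries, which may be technical. In 3 groups 1 library stood apart from the others: replicate 1 of BMP4 at 12 h, and with Activin+BMP4 replicate 2 at 48 h and replicate 3 at 96 h. Without these 3 libraries the counts of called members between the conditions were the same at all 8 times. The 6 pluripotency markers POU5F1, NANOG, SOX2, LIN28A, DPPA4 and ZFP42 summed to 5877 to 6039 CPM in untreated cells, none of them at 0, and to 2852 to 3028 CPM at 96 h with BMP4 and 3097 to 3506 CPM at 96 h with Activin+BMP4. These are bulk libraries, in which fewer cells of a type and less RNA per cell cannot be told apart.

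Per kilobase of exon, ITGB1, the beta subunit that pairs with most alpha subunits of the set, had the most RNA of all members in BMP4 cells at 96 h, in Activin+BMP4 cells at 96 h and in untreated cells. It stood at 194 ± 19.4 CPM per kb with BMP4, 117 ± 7.36 with Activin+BMP4 and 87.7 ± 0.828 in untreated cells. In untreated cells ITGB5, a partner of ITGAV in vitronectin binding, followed with 46.7 ± 1.76 CPM per kb and ITGA6 with 42.1 ± 0.696, and these neighbours in the order differed by more than their SDs. LAMC1 (36.5 ± 0.24), LAMB2 (12 ± 0.136), LAMB1 (11.7 ± 0.287), LAMA5 (10.2 ± 0.231) and LAMA1 (8.27 ± 0.102) were the leading laminin chains per length, and LAMB2 and LAMB1 were within their SDs of each other. By 96 h with BMP4 the order had become ITGB1, LAMC1 (80.2 ± 5.92), ITGAV (66.3 ± 11), LAMB1 (49.9 ± 2.77) and ITGB5 (45.4 ± 1.25), in which LAMC1 and ITGAV lay within their summed SDs. With Activin+BMP4 it was ITGB1, ITGB5 (83.5 ± 2.61), LAMC1 (35.9 ± 1.54), ITGA5 (28.1 ± 2.82) and LAMB1 (27.5 ± 3.21), of which ITGA5 and LAMB1 could not be separated.

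**Figure D1:**
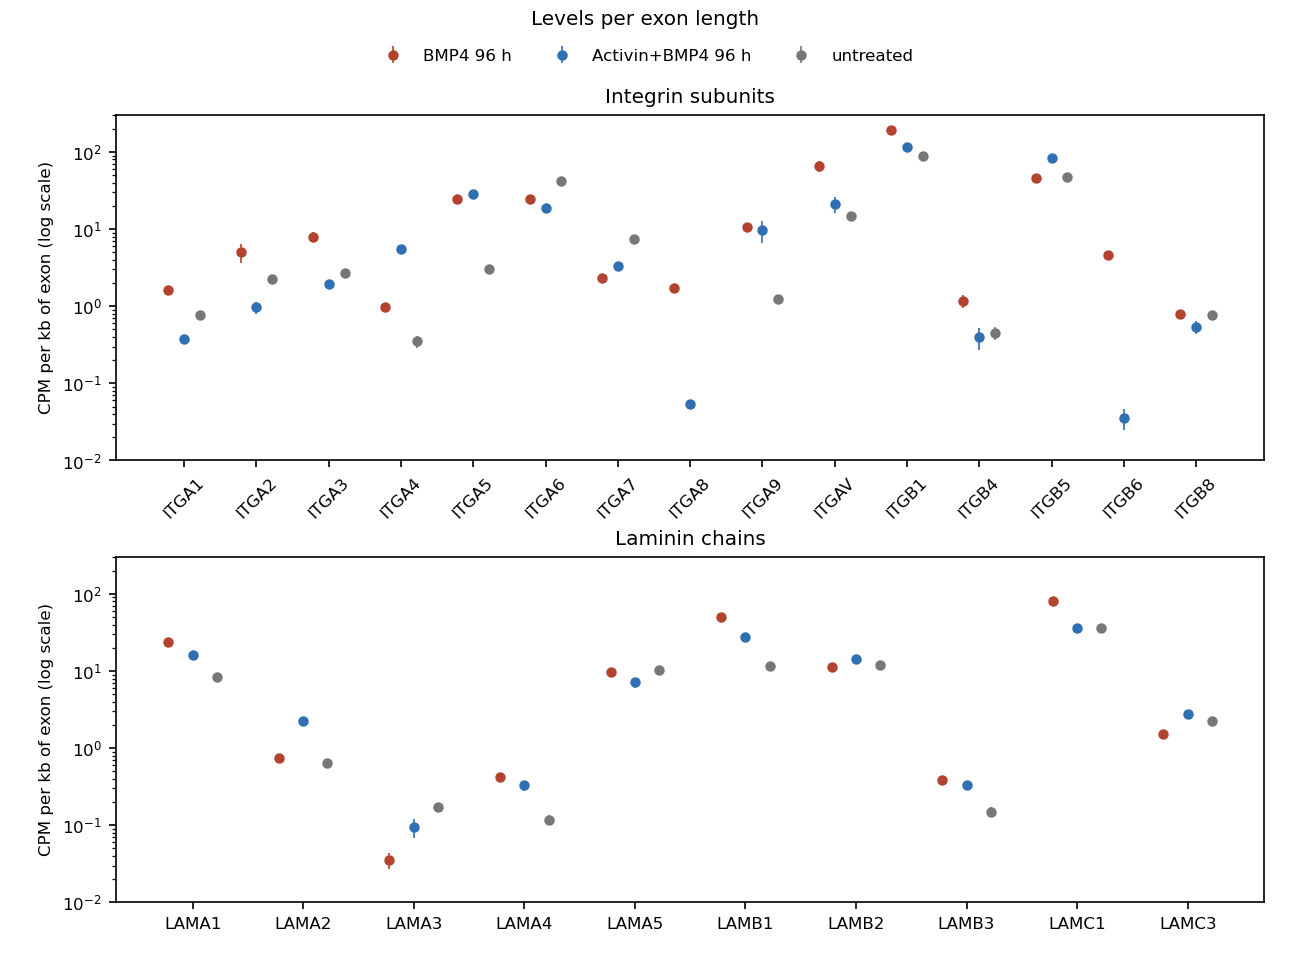
Mean level per exon length (CPM per kb of exon, log scale) of 15 integrin subunits and 10 laminin chains at 96 h with BMP4 (left), at 96 h with Activin+BMP4 (middle) and in untreated cells (right); bars are SDs of 3 libraries. ITGB6 in untreated cells is at 0 and ITGA8 in untreated cells lies below the axis, so neither point is drawn.

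The number of members that differed between BMP4 and Activin+BMP4 grew with time. At 1 h 0 of 33 were called by edgeR's quasi-likelihood test, where 0% of all genes were called higher and 0.0051% lower, and 0 members had an unadjusted p under 0.05 (DESeq2 also called 0). At 6 h 0 were called, beside 0.189% higher and 0.316% lower over all genes, with 4 members at an unadjusted p under 0.05 (DESeq2 called 0). At 12 h 0 were higher and 1 lower, where 0.658% of all genes were called higher and 0.765% lower. At 24 h 1 was higher and 1 lower, against 2.41% and 1.6% of all genes. At 36 h 2 were higher and 1 lower, against 3.02% and 2.56%. At 48 h 1 was higher and 6 lower, against 4.86% and 4.39%. At 72 h 5 were higher and 5 lower, against 5.07% and 4.56%, and at 96 h 8 were higher and 5 lower, against 7.62% and 7.95%. Over all 8 times 21 of 33 tested members were called at least once, 11 of them higher with BMP4 only, 9 lower only and 1, ITGA8, in both directions, where 22.9% of all tested genes were called at least once. The median log2 fold change of the 33 at 96 h was 0.20, beside 0.00 over all genes tested.

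**Figure D2:**
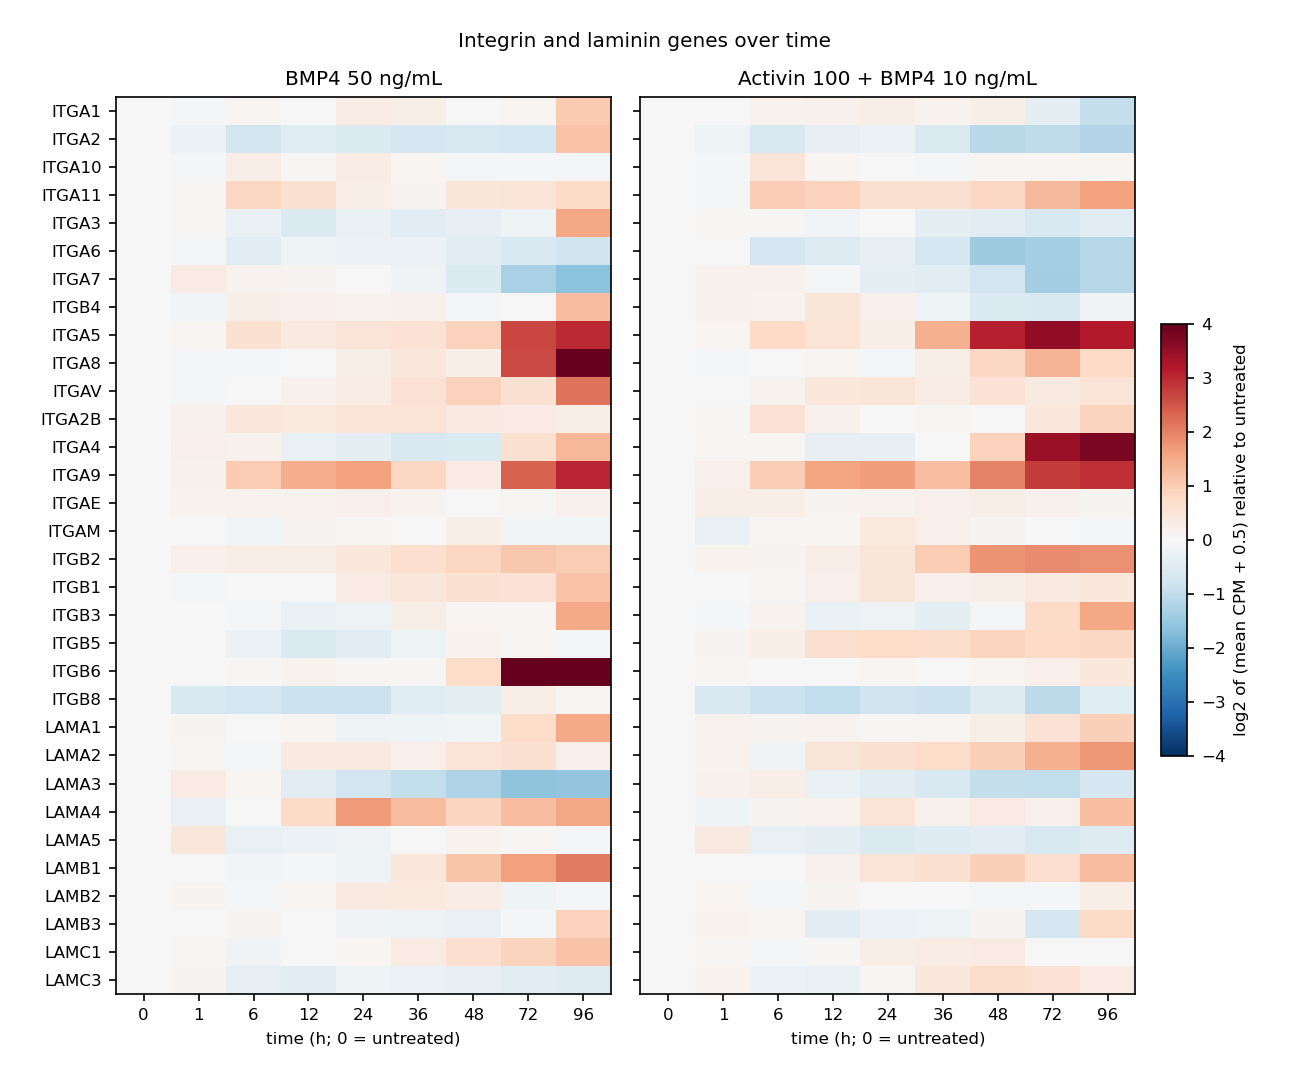
Mean level of 32 tested members at each time, as log2 of (CPM + 0.5) relative to untreated cells, with BMP4 on the left and Activin+BMP4 on the right; time runs left to right in hours and genes are ordered by role. ITGB6 and ITGA8 deepen at 72 and 96 h in the BMP4 panel, ITGA5 at 48 h and ITGA4 at 72 h in the Activin+BMP4 panel, and the scale ends at 4, which the ITGB6 and ITGA8 values with BMP4 exceed.

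At 1 h the levels of ITGB8 and LAMA5, genes chosen after their values were seen, lay outside the untreated range in both conditions. ITGB8, a subunit that pairs with ITGAV and binds latent TGF-beta, had 8.47, 6.88 and 7.3 CPM at 1 h with BMP4 and 7.01, 7.7 and 8.28 with Activin+BMP4, against 10.6, 11.9 and 13 CPM in untreated cells. All 6 treated libraries lay below the 3 untreated ones. LAMA5, the laminin alpha chain made widely in epithelia, stood at 216, 194 and 183 CPM with BMP4 and 185, 198 and 178 with Activin+BMP4 at 1 h, against 149, 144 and 143 CPM in untreated cells, and these groups did not overlap either. The comparison of 1 h with untreated cells was not tested. By 6 h ITGA9, which pairs with ITGB1 and binds tenascin-C among other ligands, had 21, 21 and 20.9 CPM with BMP4 and 23.8, 19.7 and 19 with Activin+BMP4, against 10.4, 9.53 and 10.7 CPM in untreated cells. That was a log2 change of 1.04 ± 0.15 with BMP4 (SE; edgeR adjusted p = 7.12e-07) and 1.03 ± 0.15 with Activin+BMP4 (adjusted p = 7.91e-07), both next to the 2-fold threshold. Without untreated replicate 2 they were 0.99 and 0.98, and without Activin+BMP4 6 h replicate 1 that with Activin+BMP4 was 0.92, all just under 2-fold. ITGA11, a collagen receptor subunit of mesenchymal cells, was the other member called at 6 h in each condition, at 0.767 ± 0.156 CPM with BMP4, 0.906 ± 0.083 CPM with Activin+BMP4 and 0.217 ± 0.141 CPM in untreated cells. Thus 2 members were higher and 0 lower than untreated at 6 h with BMP4, where 3.44% of all genes were called higher and 1.56% lower, and 2 and 0 with Activin+BMP4, where the shares were 3.92% and 1.77%. Both comparisons share the 3 untreated libraries.

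The first member called between the conditions was ITGB5. At 12 h it had 196, 197 and 209 CPM with BMP4, against 478, 478 and 443 CPM with Activin+BMP4, and at 24 h 222, 229 and 223 CPM against 506, 498 and 505 CPM. Untreated cells had 312, 303 and 289 CPM, so that the BMP4 libraries lay below and the Activin+BMP4 libraries above all 3 of them at both times. The log2 fold change between the conditions was -1.22 ± 0.05 at 12 h (SE; edgeR adjusted p = 3.2e-24) and -1.16 ± 0.05 at 24 h (adjusted p = 7.84e-24). Every BMP4 library of ITGB5 was below every Activin+BMP4 library of its time from 6 to 96 h, but from 36 h on the difference was under 2-fold, at -0.91 ± 0.04 at 36 h and -0.88 ± 0.04 at 96 h. LAMA4, a laminin chain best known from vessel walls, went the other way. It had 5.17, 6.06 and 5.51 CPM at 24 h with BMP4 and 2.1, 2.04 and 2.51 with Activin+BMP4, with no overlap (2.52-fold higher; log2 1.33 ± 0.18; edgeR adjusted p = 9.78e-08). It was 1.37 CPM in untreated cells, and was called higher with BMP4 again at 36 h (4.01 against 1.63 CPM) and 72 h (3.89 against 1.65 CPM). LAMA4 stayed below 7 CPM in every library.

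The calls at 36 h other than LAMA4 were in genes of few counts. ITGB3, the other beta subunit of vitronectin receptors, had 24 counts over the BMP4 libraries and 3 over the Activin+BMP4 libraries, a ratio of 8.01 with a 95% counting interval of 2.43 to 41.6 that covers counting error only. ITGA11 was at 0.266 ± 0.0839 against 0.589 ± 0.0513 CPM (log2 -1.13 ± 0.44; edgeR adjusted p = 0.0483). The ITGA11 call was lost in all 6 fits that left out 1 of the 36 h libraries (adjusted p 0.0522 to 0.185) and, with replicate number as a block, at an adjusted p of 0.0507. The ITGB3 call was lost in 5 of those 6 fits, at adjusted p of 0.0651 to 0.105. ITGB3 shares 2266 of its 4394 exon bases with a readthrough gene on the same strand, ENSG00000259753, so its counts are uncertain.

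**Figure D3:**
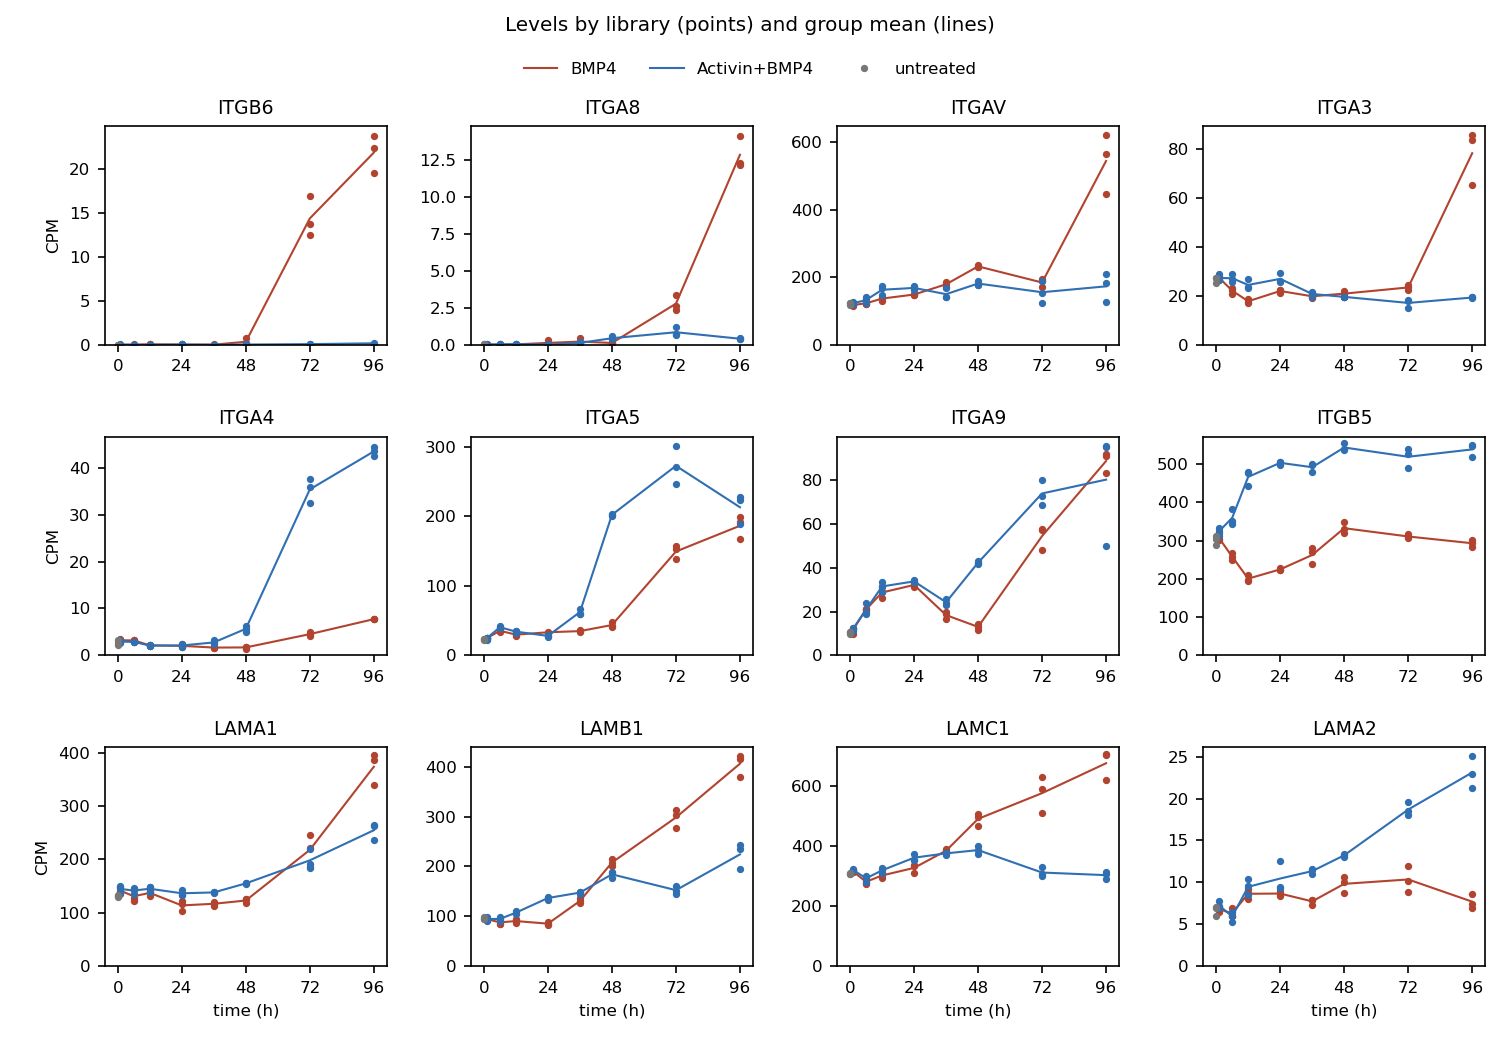
Levels (CPM, linear axis from 0) of 12 members over time in hours, with BMP4 in red, Activin+BMP4 in blue and untreated cells in grey at 0 h; points are libraries and lines join group means. ITGB6 and ITGA8 stay near 0 with Activin+BMP4, ITGA5 is apart by 36 h and ITGA4 by 48 h, and the ITGAV and ITGA3 difference appears at 96 h.

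At 48 h the members that differed were mostly lower with BMP4. ITGA5, which with ITGB1 forms the main fibronectin receptor, had 41.5, 42.1 and 47.4 CPM with BMP4, against 202, 201 and 203 CPM with Activin+BMP4. Untreated cells had 23.5, 23.8 and 21.8 CPM, so both conditions were above them and the Activin+BMP4 libraries were far above. ITGA5 was 4.63-fold lower with BMP4 (log2 -2.21 ± 0.07; edgeR adjusted p = 1.9e-27). The rise with Activin+BMP4 was in view at 36 h, at 60.2, 67 and 59.8 CPM, when the BMP4 libraries had 34.7, 36 and 34.1 CPM.

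ITGA4 and ITGA9 form a subfamily of alpha subunits, and both were lower with BMP4 at 48 h. ITGA4, which binds fibronectin and VCAM1 and is known from migrating and blood cells, had 1.4, 1.87 and 1.82 CPM with BMP4 and 5.07, 6.28 and 5.63 with Activin+BMP4, without overlap (3.34-fold lower; log2 -1.74 ± 0.13; edgeR adjusted p = 3.36e-15). Untreated cells had 2.73, 3.26 and 2.31 CPM, between the conditions. ITGA9 had 13, 11.7 and 14.3 CPM with BMP4 and 42, 41.7 and 43 with Activin+BMP4 (3.25-fold lower; log2 -1.70 ± 0.14; adjusted p = 1.92e-13). At 24 h the groups of ITGA9 were still close, at 32.1 ± 1.03 CPM with BMP4 and 33.7 ± 0.54 with Activin+BMP4. After 24 h the level with BMP4 was 18.4 CPM at 36 h, 13 CPM at 48 h, 54.4 CPM at 72 h and 88.6 CPM at 96 h, a dip and a return. With Activin+BMP4 it was 24.2, 42.2, 73.8 and 80.1 CPM at those times.

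LAMC3, a laminin gamma chain known from retina and brain, was the 1 laminin called at 48 h. It had 12.3, 12.9 and 15 CPM with BMP4 against 28.4, 28.4 and 27.4 CPM with Activin+BMP4 (2.09-fold lower; log2 -1.07 ± 0.08; edgeR adjusted p = 8.68e-15), on either side of the 18.2, 16 and 16.4 CPM of untreated cells. The other 3 calls at 48 h were in genes below 2 CPM. ITGB2 was at 0.616 ± 0.105 against 1.69 ± 0.309 CPM and ITGA8 at 0.121 ± 0.00402 against 0.443 ± 0.104 CPM, while ITGB6 had 25 counts over the BMP4 libraries and 2 over the Activin+BMP4 libraries (ratio 12.8, 95% counting interval 3.18 to 111). The ITGA8 call was lost without Activin+BMP4 48 h replicate 3 (edgeR adjusted p = 0.0656) and the ITGB6 call without BMP4 48 h replicate 2 (adjusted p = 0.0787). The ITGB6 log2 fold change of 3.45 ± 0.88 was 2.22 without that library and 6.12 without Activin+BMP4 48 h replicate 3. Marker lists moved with these results at 48 h. The 4 definitive endoderm markers SOX17, FOXA2, CXCR4 and CER1 summed to 51.4 to 54.2 CPM with BMP4 and 1555 to 1671 with Activin+BMP4. Most of each endoderm sum was CER1, at 47.2 and 1494 CPM, and SOX17, FOXA2 and CXCR4 were lower with BMP4 as well. The 3 primitive streak markers TBXT, MIXL1 and EOMES summed to 311 to 327 CPM with BMP4 and 1290.1 to 1312 with Activin+BMP4. The 5 amnion markers TFAP2A, ISL1, GABRP, VTCN1 and WNT6 summed to 169.7 to 178 CPM with BMP4 and 15.1 to 17.3 with Activin+BMP4. The 2 epithelial markers EPCAM and CDH1 summed to 1111 to 1153 and 529 to 552 CPM, and the 5 mesoderm and mesenchyme markers to 182 to 189.7 and 84.2 to 90 CPM. Of the 5 mesoderm and mesenchyme markers, HAND1 was at 176 CPM with BMP4 and 18.1 with Activin+BMP4, while PDGFRA went the other way, at 6.76 and 66.7 CPM. HAND2, COL3A1 and TWIST1 had group means of at most 1.14 CPM in these 48 h groups. The part of these marker lists in the 48 h results was not tested.

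At 72 h ITGB6 had appeared in BMP4 cells. ITGB6 pairs with ITGAV only, is typical of epithelia and binds latent TGF-beta, which it can activate. It had 12.4, 13.7 and 16.9 CPM at 72 h and 22.3, 23.7 and 19.5 CPM at 96 h with BMP4. The Activin+BMP4 libraries had 0.133, 0 and 0.0767 CPM at 72 h and 0.222, 0.134 and 0.139 CPM at 96 h, and the 3 untreated libraries had 0 counts. ITGB6 was 195-fold higher with BMP4 at 72 h (log2 7.61 ± 0.44; edgeR adjusted p = 8.65e-16) and 129.6-fold at 96 h (log2 7.02 ± 0.37; adjusted p = 4.99e-17). Without Activin+BMP4 72 h replicate 1 the 72 h log2 fold change was 8.33. The epithelial markers EPCAM and CDH1 summed to 939.7 to 974 CPM with BMP4 and 438 to 455 with Activin+BMP4 at 72 h. The 5 amnion markers summed to 454 to 493 and 7.98 to 11 CPM, and most of the BMP4 sum was GABRP, at 327 CPM. The part of these markers in the 72 h results was not tested. Against untreated cells ITGB6 was at least 534-fold higher at 96 h with BMP4, with a floor of 3 counts over the untreated group. Of its 4687 exon bases 966 lie under a noncoding transcript on the same strand that has no row in the count table.

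The other 72 h calls included ITGA8, ITGB8, LAMA4 and LAMB3, which were higher with BMP4, and ITGA4, ITGA11, ITGB2, LAMA3 and LAMC3, which were lower. ITGB8 had 13.7, 15.6 and 14 CPM with BMP4 and 5.71, 5.36 and 5.48 with Activin+BMP4 (log2 1.39 ± 0.12; edgeR adjusted p = 4.64e-13), so that at this time the BMP4 libraries were above all and the Activin+BMP4 libraries below all untreated ones. ITGA4 was 7.8-fold lower with BMP4, at 4.52, 5.01 and 4.05 CPM against 32.5, 37.7 and 36 CPM, the lowest log2 fold change between the conditions of any tested member at any time (-2.96 ± 0.10; adjusted p = 1.21e-26). Calls for the low genes LAMA3, LAMB3 and ITGB2 depended on single libraries. Without Activin+BMP4 72 h replicate 2 the LAMA3 change was -0.68 and the LAMB3 change 1.04, at adjusted p of 0.115 and 0.0576. The LAMA3 change was -0.95 without BMP4 72 h replicate 1 and -0.96 without replicate 2, and the ITGB2 change was -0.96 without replicate 1 of either condition. ITGB3, with 20 counts over the BMP4 libraries and 53 over the Activin+BMP4 libraries at 72 h, was not called (log2 -1.52 ± 0.66; adjusted p = 0.0621). It was called lower with no filter (adjusted p = 0.0118), with the stricter filter (0.0458), in a fit of the compared groups alone (0.048) and without BMP4 72 h replicate 3 (log2 -2.13; adjusted p = 0.0329).

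By 96 h several alpha subunits of collagen, laminin and RGD receptors were higher with BMP4, RGD being the short peptide in fibronectin and vitronectin that these integrins hold. Of the 4 RGD-binding alpha subunits 2 were higher and 0 lower with BMP4, ITGA8 and ITGAV, where 7.62% of all genes were called higher and 7.95% lower. ITGA8, which with ITGB1 binds nephronectin and is known from mesenchyme around developing epithelia, had 12.3, 14.1 and 12.2 CPM with BMP4, against 0.371, 0.435 and 0.418 CPM with Activin+BMP4 (31.2-fold higher; log2 4.96 ± 0.38; edgeR adjusted p = 9.38e-15). Untreated cells had 2 counts of ITGA8 over 3 libraries, and the ratio of BMP4 cells to them was 474 with a 95% counting interval of 131 to 3916. ITGAV, the common alpha subunit of vitronectin receptors, had 622, 565 and 445 CPM with BMP4, against 183, 209 and 127 CPM with Activin+BMP4 and 123, 117 and 123 CPM in untreated cells. Every BMP4 library was above every other library (3.15-fold higher than Activin+BMP4; log2 1.65 ± 0.11; adjusted p = 7.8e-17). This came late, since at 72 h ITGAV had 169.8, 188 and 195 CPM with BMP4 and 189.6, 152 and 125 with Activin+BMP4, groups that overlapped.

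Of the 4 collagen-binding alpha subunits 2 were higher and 1 lower with BMP4 at 96 h, against the same 7.62% and 7.95% of all genes. ITGA2 had 47.3, 43.9 and 27.5 CPM with BMP4, against 7.08, 6.56 and 9.26 CPM with Activin+BMP4 (5.18-fold higher; log2 2.37 ± 0.13; edgeR adjusted p = 5.2e-20). ITGA1 had 32.6, 31 and 26.6 CPM with BMP4 and 6.71, 6.79 and 7.69 with Activin+BMP4 (4.25-fold higher; log2 2.09 ± 0.07; adjusted p = 2.27e-26). In untreated cells ITGA2 had 18.2, 17.3 and 18 CPM and ITGA1 13.4, 14.2 and 14.8 CPM, so for both genes the untreated libraries lay between the conditions. ITGA1 overlaps PELO on the same strand over 475 of its 18566 exon bases, and PELO had group means of 23.0 to 29.6 CPM. ITGA11 was low throughout and 2.34-fold lower with BMP4, at 0.732 ± 0.198 against 1.71 ± 0.488 CPM. ITGA10 had at most 0.738 CPM in any library.

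Among the laminin-binding subunits 2 of 4 were higher with BMP4 at 96 h and 0 lower, beside 7.62% and 7.95% over all genes. ITGA3, an epithelial laminin receptor subunit, had 85.6, 83.5 and 65.1 CPM with BMP4, against 19.3, 19.1 and 19.3 CPM with Activin+BMP4 (4.05-fold higher; log2 2.02 ± 0.07; edgeR adjusted p = 9.15e-26) and 27, 25.3 and 27.1 CPM in untreated cells. ITGB4, which pairs with ITGA6 in hemidesmosomes, was at 7.9 ± 1.48 CPM with BMP4 and 2.68 ± 0.874 with Activin+BMP4. ITGA6 and ITGA7 did not reach the 2-fold threshold, at log2 fold changes of 0.36 ± 0.06 and -0.52 ± 0.10. ITGB1 likewise missed it at 0.74 ± 0.05, although its BMP4 libraries, at 1255, 1213 and 1035 CPM, were all above the Activin+BMP4 libraries, at 699, 747 and 659 CPM.

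The members that were lower with BMP4 at 96 h were ITGA4, LAMA2, LAMA3, ITGA11 and ITGB2. ITGA4 had 7.72, 7.79 and 7.67 CPM with BMP4, against 44.5, 43.5 and 42.5 CPM with Activin+BMP4 (5.62-fold lower; log2 -2.49 ± 0.09; edgeR adjusted p = 2.14e-25). LAMA2, the laminin alpha chain of muscle and peripheral nerve, had 8.61, 7.46 and 6.98 CPM with BMP4 and 21.2, 23 and 25.1 with Activin+BMP4 (3.01-fold lower; log2 -1.59 ± 0.10; adjusted p = 7.12e-18). The BMP4 libraries of LAMA2 overlapped the untreated ones, at 6.87, 5.95 and 7 CPM, while the Activin+BMP4 libraries were all above them. LAMA3 was at 0.515 ± 0.123 against 1.4 ± 0.382 CPM.

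Several lists of markers of other fates also differed between the conditions at 96 h. The 4 definitive endoderm markers SOX17, FOXA2, CXCR4 and CER1 summed to 64.5 to 77.6 CPM with BMP4 and 2719 to 3627 with Activin+BMP4. Most of each endoderm sum was CER1, at 49.4 and 2917 CPM, and SOX17, FOXA2 and CXCR4 were lower with BMP4 as well. The 5 mesoderm and mesenchyme markers summed to 1158 to 1302 and 34.5 to 52.3 CPM, the 5 amnion markers to 612 to 717 and 6.06 to 6.67 CPM, and the 4 endothelial markers, of which KDR is also made by early mesoderm and stem cells, to 766 to 1001 and 208 to 217 CPM. Most of the amnion sum with BMP4 was GABRP, at 526 CPM, and WNT6 was at 4.08 CPM. Nearly all of the endothelial sum was KDR, at 851 and 188 CPM, and TEK, at 68.3 and 23.5 CPM. CDH5 was at 0.605 and 0.314 CPM, and PECAM1 went the other way, at 0.257 and 0.335 CPM. The primitive streak markers TBXT, MIXL1 and EOMES summed to 147 to 180 CPM with BMP4 and 443 to 577 with Activin+BMP4. MIXL1, at 57.9 and 178 CPM, and EOMES, at 59.3 and 342 CPM, were lower with BMP4. TBXT went the other way, at 45.6 CPM with BMP4 and 10.4 with Activin+BMP4. For the epithelial markers EPCAM and CDH1 the sums were close, at 528 to 545 and 459 to 496 CPM, against 620 to 640 CPM in untreated cells. The 2 genes went opposite ways. EPCAM was lower with BMP4, at 153, 156 and 146 CPM against 227, 242 and 213 CPM, and CDH1, the rest of the sum, was higher. None of these markers was at 0 in either group at 96 h, and their part in the integrin and laminin results was not tested.

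**Figure D4:**
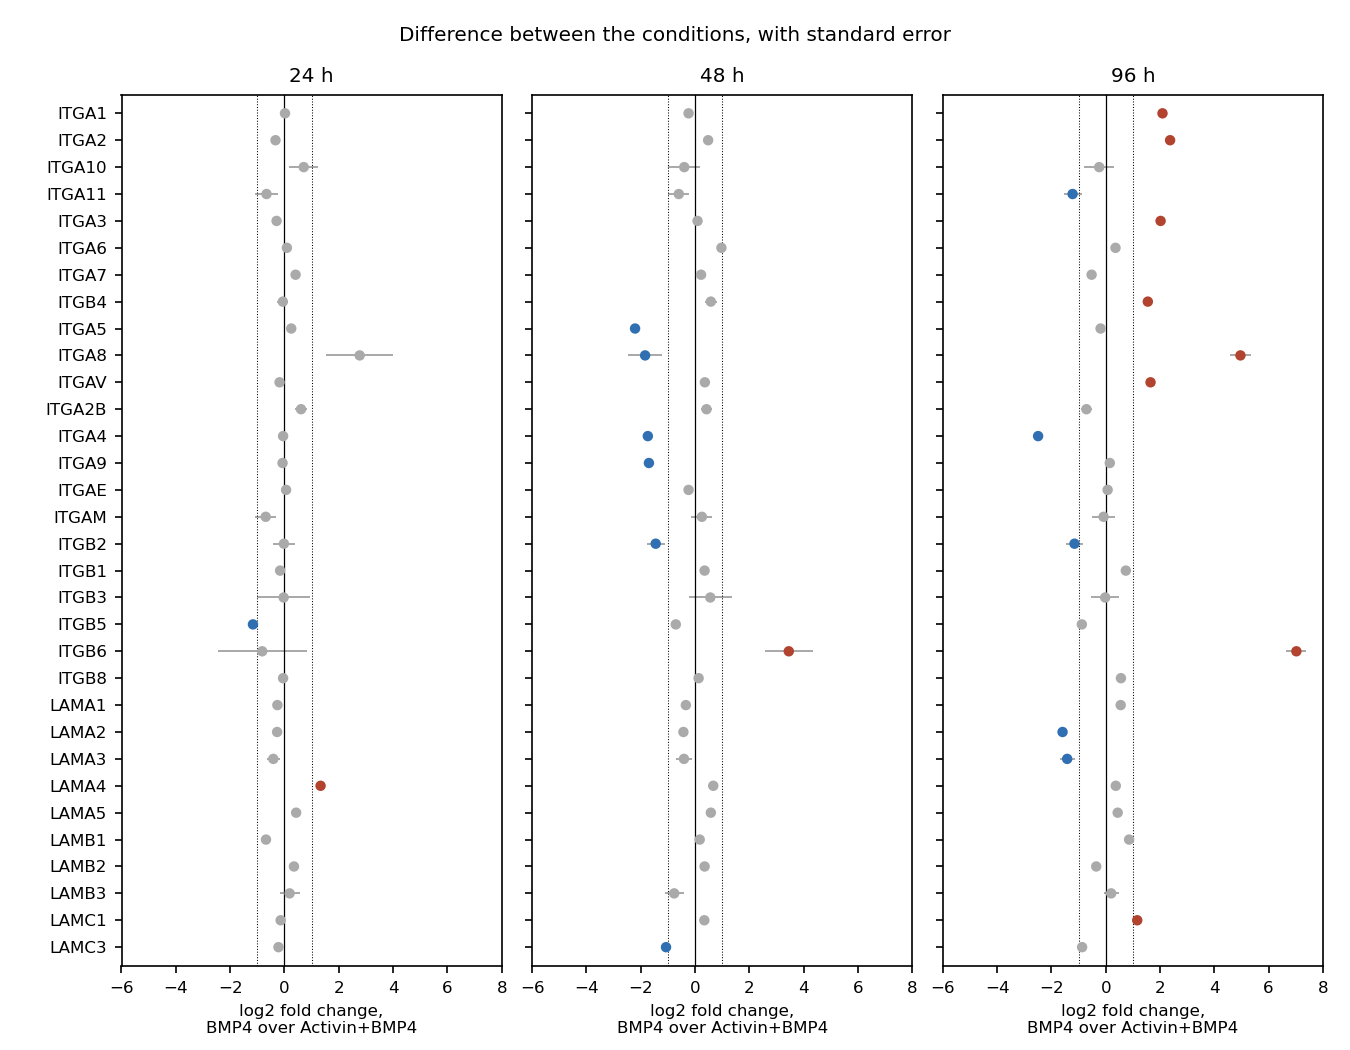
Log2 fold change of BMP4 over Activin+BMP4 for 32 tested members at 24, 48 and 96 h, with the SE as a bar; red points were called higher and blue points lower with BMP4, grey points were not called, and dotted lines mark a 2-fold change. At 48 h 6 of the 7 calls lie left of 0 and at 96 h 8 of the 13 lie right of it.

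The bases before the start of the gene are shown for those members called at 96 h for which RefSeq gives a window and at least 200 bases lie before the gene's start in GENCODE 29 as well. Stretches that touch an exon of a protein-coding gene were left out. The members shown were 7 of the 13, and their stretches are printed so that the sequences of genes that moved together can be compared. The sequences are from RefSeq (GRCh38.p14), 5′ to 3′ on the gene's strand, and capitals mark a match to any motif searched. Each ends just before the gene's start in RefSeq or in GENCODE 29, whichever lies further upstream. ITGB6, ITGA2, ITGA1, ITGAV and LAMC1 were higher with BMP4, ITGA11 and LAMA2 lower. ITGB6 is at chr2:160200314-160200522 (minus strand), ITGA2 at chr5:52989102-52989325 (plus), ITGA1 at chr5:52787666-52787895 (plus), ITGAV at chr2:186589806-186590055 (plus), LAMC1 at chr1:183023170-183023419 (plus), ITGA11 at chr15:68432164-68432413 (minus) and LAMA2 at chr6:128882888-128883137 (plus).
ITGB6: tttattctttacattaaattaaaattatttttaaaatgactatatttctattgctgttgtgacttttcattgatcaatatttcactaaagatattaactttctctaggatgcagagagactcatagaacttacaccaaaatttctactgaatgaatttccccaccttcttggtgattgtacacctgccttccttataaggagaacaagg
ITGA2: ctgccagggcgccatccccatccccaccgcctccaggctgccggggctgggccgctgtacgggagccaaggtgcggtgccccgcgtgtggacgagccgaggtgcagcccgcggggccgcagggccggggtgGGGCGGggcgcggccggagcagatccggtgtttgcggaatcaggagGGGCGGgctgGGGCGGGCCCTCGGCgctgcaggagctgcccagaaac
ITGA1: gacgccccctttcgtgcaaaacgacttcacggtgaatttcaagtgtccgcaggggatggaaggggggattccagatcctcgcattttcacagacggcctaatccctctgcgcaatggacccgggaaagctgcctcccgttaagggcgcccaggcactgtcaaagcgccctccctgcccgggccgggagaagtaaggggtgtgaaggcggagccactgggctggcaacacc
ITGAV: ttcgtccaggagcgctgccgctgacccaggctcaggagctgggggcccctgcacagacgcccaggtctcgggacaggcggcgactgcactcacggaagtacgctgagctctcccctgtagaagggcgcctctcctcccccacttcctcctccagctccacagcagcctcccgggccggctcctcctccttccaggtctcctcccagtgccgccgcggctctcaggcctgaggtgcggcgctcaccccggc
LAMC1: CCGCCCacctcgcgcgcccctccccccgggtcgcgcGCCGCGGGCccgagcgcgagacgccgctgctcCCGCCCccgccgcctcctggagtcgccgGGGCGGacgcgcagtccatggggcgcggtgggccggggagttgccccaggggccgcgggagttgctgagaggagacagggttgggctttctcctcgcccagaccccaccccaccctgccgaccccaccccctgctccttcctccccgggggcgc
ITGA11: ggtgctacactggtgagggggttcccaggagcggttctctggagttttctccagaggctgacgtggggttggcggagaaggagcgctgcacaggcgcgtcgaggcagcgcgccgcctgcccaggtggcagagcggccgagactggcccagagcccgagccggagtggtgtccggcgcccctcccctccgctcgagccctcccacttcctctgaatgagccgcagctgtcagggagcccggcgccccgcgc
LAMA2: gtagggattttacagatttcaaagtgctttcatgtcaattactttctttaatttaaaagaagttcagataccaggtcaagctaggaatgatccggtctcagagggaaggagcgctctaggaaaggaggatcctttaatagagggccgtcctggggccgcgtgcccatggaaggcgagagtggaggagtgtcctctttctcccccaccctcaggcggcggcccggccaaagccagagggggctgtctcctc

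The ITGB6 stretch stood out by base composition, with 30.1% G and C over 209 bases, against 77.2% in ITGA2, 61.7% in ITGA1, 70.8% in ITGAV, 79.6% in LAMC1, 71.2% in ITGA11 and 53.2% in LAMA2. The median over all 35116 RefSeq windows of 250 bases was 58%, and over the 33 windows of 26 matched members it was 60%. The motifs searched on both strands were GGGCGG (a GC box, bound by SP factors), TATAAA (the core of a TATA box), GCCNNNGGC (bound by TFAP2 factors), TGANTCA (bound by AP-1) and AGATAA (bound by GATA factors). Within the printed bases ITGA2 and LAMC1 each held 3 GGGCGG and 1 GCCNNNGGC. In ITGA2 the GCCNNNGGC directly follows a GGGCGG without overlap, and no matches overlap in LAMC1. The other 5 held none of the 5 motifs. Over the 250-base windows GGGCGG was in 51.5% of member windows and 42.6% of all windows, GCCNNNGGC in 24.2% and 19.8%, TATAAA in 6.06% and 10.7%, TGANTCA in 6.06% and 6.57%, and AGATAA in 6.06% and 9.17%. These are matches of letters only, and a window without a match says nothing about the factor.

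Among the laminins, the 3 chains of the trimer typical of the early embryo, LAMA1, LAMB1 and LAMC1, were all higher at 96 h with BMP4 than in untreated cells. LAMA1 had 387, 396 and 339 CPM with BMP4 and 264, 263 and 237 with Activin+BMP4, against 132, 129 and 132 CPM in untreated cells. LAMB1 had 416, 422 and 381 CPM with BMP4 and 235, 243 and 194 with Activin+BMP4, against 98.3, 94.2 and 94.3 CPM in untreated cells. LAMC1 had 706, 700.3 and 617 CPM with BMP4 and 288, 305 and 314 with Activin+BMP4, against 308, 305 and 309 CPM in untreated cells. For all 3 genes the BMP4 libraries lay above both other groups, and the Activin+BMP4 libraries were above untreated for LAMA1 and LAMB1 but overlapped them for LAMC1. Between the conditions at 96 h only LAMC1 of the 3 was called (log2 1.16 ± 0.05; edgeR adjusted p = 4.09e-23), with LAMB1 at 0.86 ± 0.05 and LAMA1 at 0.55 ± 0.07 under the 2-fold threshold. LAMB1 at 24 h had differed the other way, at 85 ± 3.42 CPM with BMP4 and 137 ± 3 with Activin+BMP4 (log2 -0.68 ± 0.06, also under 2-fold). At 72 h LAMB1 had 278, 313 and 304 CPM with BMP4 and 160.2, 151 and 145 with Activin+BMP4, just under 2-fold (log2 0.97 ± 0.06), and it was called higher without replicate 1 of BMP4 72 h (1.02) or of Activin+BMP4 72 h (1.01).

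LAMA3 and LAMB3, chains known from epithelial basement membranes, moved in opposite directions against untreated cells at 96 h with BMP4. LAMA3 had 0.423, 0.469 and 0.655 CPM with BMP4 and 1.41, 1.77 and 1.01 with Activin+BMP4, against 2.21, 2.78 and 2.56 CPM in untreated cells, and was called lower than untreated with BMP4 (-2.26 ± 0.27). With Activin+BMP4 its change of -0.84 ± 0.24 was under 2-fold, but it was called, at -1.05, without Activin+BMP4 96 h replicate 2 (edgeR adjusted p = 0.000699). The difference of the conditions at 96 h was itself called for LAMA3 (-1.42 ± 0.28). LAMB3 was higher than untreated in both, at 1.81 ± 0.151 CPM with BMP4 and 1.57 ± 0.0654 with Activin+BMP4 against 0.707 ± 0.1 CPM. LAMA5 and LAMB2 were not called in any of the 17 comparisons.

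Whether the difference between the conditions itself changed between 48 h and 96 h was tested as an interaction. The difference moved up by at least 2-fold for 7 members and down for 3, where 7.22% of all genes were called up and 8.5% down. ITGA8 turned round: at 48 h it had 0.116, 0.122 and 0.124 CPM with BMP4 and 0.393, 0.374 and 0.563 with Activin+BMP4, and at 96 h, as given above, the BMP4 libraries were all higher. The 48 h side of this turn rests on few counts, and its call was lost without Activin+BMP4 48 h replicate 3 (edgeR adjusted p = 0.0656). The ITGA8 change was 6.80 ± 0.72 on the log2 scale (SE; edgeR adjusted p = 1.07e-10). ITGA1 had 13.8, 14.1 and 14.3 CPM with BMP4 and 16.9, 16.3 and 16.7 with Activin+BMP4 at 48 h, close to each other, and its change was 2.33 ± 0.10 (adjusted p = 2.46e-22). ITGA5 was no longer called at 96 h, when it had 199, 192 and 168 CPM with BMP4 and 227, 223 and 188 with Activin+BMP4, groups that overlapped (change 2.02 ± 0.09; adjusted p = 1.34e-21). LAMA2 was called at 96 h but not at 48 h, when it had 8.76, 10.6 and 10.1 CPM with BMP4 and 13.2, 13.4 and 13.1 with Activin+BMP4 (change -1.16 ± 0.14; adjusted p = 3.57e-09). ITGA2, ITGA3, ITGA9 and ITGAV also moved up, and ITGA2B and LAMA3 down.

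Set against untreated cells at 96 h, more members had risen than fallen in both conditions. With BMP4 19 were higher and 3 lower, where 14.6% of all genes were called higher and 8.54% lower, and with Activin+BMP4 13 were higher and 4 lower, where the shares were 16.5% and 9.96%. The median log2 fold change of the 33 was 1.15 with BMP4 and 0.41 with Activin+BMP4, beside 0.04 over all genes in each. At 48 h 5 were higher and 2 lower with BMP4 (8.15% and 4.07% of all genes) and 7 and 3 with Activin+BMP4 (9.24% and 6.56%). At 24 h 3 were higher and 0 lower in each, where all genes gave 4.92% and 2.29% with BMP4 and 4.38% and 3.7% with Activin+BMP4. All of these share the same 3 untreated libraries.

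ITGA5 and ITGA9 rose strongly in both conditions by 96 h. ITGA5 was higher than untreated by 3.01 ± 0.07 on the log2 scale with BMP4 and 3.21 ± 0.07 with Activin+BMP4 (SE; edgeR adjusted p = 5.52e-32 and 5.96e-33). ITGA9 had 91.6, 90.9 and 83.3 CPM with BMP4 and 95.4, 95.1 and 49.8 with Activin+BMP4, against the 10.2 CPM mean of untreated cells, with changes of 3.11 ± 0.14 and 2.97 ± 0.14. ITGA4 rose by 3.97 ± 0.11 with Activin+BMP4 and by 1.48 ± 0.11 with BMP4, and the difference between the conditions is the one tested above. ITGA6, the laminin receptor subunit of stem cells, had 166, 153 and 156 CPM with BMP4 and 113, 119 and 138 with Activin+BMP4, against 270.0, 278 and 278 CPM in untreated cells. It was called lower with Activin+BMP4 (-1.16 ± 0.06) and missed the 2-fold threshold with BMP4 (-0.80 ± 0.06). ITGA7, a laminin receptor subunit of muscle, had 13.6, 14.2 and 16.7 CPM with BMP4 and 21.8, 18.6 and 23.5 with Activin+BMP4, against 44.9, 46.6 and 49.8 CPM in untreated cells, and was called lower in both.

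Several of the calls against untreated cells lay near the threshold and depended on 1 library. ITGA2 was 1.15 higher at 96 h with BMP4 on the log2 scale and 1.00 without BMP4 96 h replicate 1, just under 2-fold. ITGA2B, the platelet integrin alpha subunit, had 2.45, 2.28 and 5.15 CPM at 96 h with Activin+BMP4, with replicate 3 far above the others. Its change from untreated of 1.07 was 0.59 without that library, and its interaction of -1.13 was -0.65. Without untreated replicate 2 the change from untreated was 0.95. The LAMA3 interaction of -1.01 was -0.45 without BMP4 48 h replicate 1 (edgeR adjusted p = 0.415). That call was lost in 7 fits that left out 1 library (adjusted p 0.0507 to 0.415), with no filter (0.0814) and in a fit of the compared groups alone (0.142). LAMA4 at 48 h with BMP4 was 1.09 above untreated cells and 0.97 without untreated replicate 1. With Activin+BMP4 at 48 h ITGA4 was 1.03 above untreated cells, 0.95 without Activin+BMP4 48 h replicate 2 and 0.91 without untreated replicate 3. LAMA2 in the same comparison was at the threshold itself and was not called, at 0.93 to 1.00, under 10 alternatives. ITGB2 at 24 h was 1.43 above untreated cells with BMP4 and 1.45 with Activin+BMP4, but 0.88 and 0.90 without untreated replicate 3, and was not called either without untreated replicate 1, without BMP4 24 h replicate 2 for BMP4 or without Activin+BMP4 24 h replicate 1 for Activin+BMP4. ITGA11 was 1.43 above untreated cells at 24 h with Activin+BMP4 and 1.03 without untreated replicate 2 or 1.15 without Activin+BMP4 24 h replicate 2, both past an adjusted p of 0.05. At 48 h with BMP4 it was 1.21 above, and 0.82 without untreated replicate 2, 1.18 without untreated replicate 3 and 1.12 without BMP4 48 h replicate 3. ITGA1 with Activin+BMP4 at 96 h lay at the 2-fold threshold and was not called, but was called lower under 8 alternatives, by -1.07 without Activin+BMP4 96 h replicate 3.

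The integrins of leukocytes and platelets stayed low. Of 7 leukocyte subunits 4 were not tested, with at most 0.457 CPM in any library (ITGB7, of which 1886 of 4481 exon bases lie opposite ZNF740). ITGB2, the common beta subunit of leukocyte integrins, had 0.794 ± 0.0946 CPM at 96 h with BMP4 and 1.77 ± 0.346 with Activin+BMP4, against 0.134 ± 0.167 CPM in untreated cells. Its log2 change from untreated, 2.51 ± 0.44 with BMP4 and 3.66 ± 0.41 with Activin+BMP4, was 4.12 and 5.27 without untreated replicate 2. Without that library the ITGB3 changes at 96 h, 2.82 ± 0.64 with BMP4 and 2.84 ± 0.64 with Activin+BMP4, were 3.87 and 3.89. The 4 leukocyte markers PTPRC, CD53, SPI1 and CORO1A summed to 2.41 to 2.72 CPM with BMP4 and 1.52 to 2.04 with Activin+BMP4, against 7.47 to 7.97 CPM in untreated cells, with none at 0. Most of each sum was CORO1A, at 2.33, 1.44 and 7.1 CPM, and the others had means of at most 0.298 CPM in these groups. The 4 megakaryocyte and platelet markers summed to 0.653 to 1.02, 0.592 to 1.15 and 0.804 to 0.885 CPM in these groups, and GP9 was at 0 in all 3. ITGAE, which pairs with ITGB7 and binds E-cadherin, had group means of 8.48 to 10.4 CPM and was not called in any of the 17 comparisons, and ITGAM had at most 0.834 CPM. HASPIN lies opposite 427 of the 6657 exon bases of ITGAE, and whether the counting used strand is not given in the sources used here.

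Between the conditions 12 tested members were called at none of the 8 times in the fit of all libraries, among them ITGA10, ITGA2B, ITGA6, ITGA7, ITGAE, ITGAM, ITGB1, LAMA1, LAMA5, LAMB1 and LAMB2. Of these ITGA10, ITGAE, ITGAM, LAMA5 and LAMB2 were not called against untreated cells either. LAMB2 group means lay between 73.3 and 108.7 CPM and LAMA5 group means between 93.7 and 197.6 CPM. LAMA1 has 1641 of its 15872 exon bases, and ITGA9 535 of 8277, opposite an antisense gene.

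The 47 other genes of the matrix and of integrin signalling, all of which were tested, comprised 23 ligands and basement membrane parts, 3 other laminin receptors and 21 cytoplasmic or membrane partners. At 48 h 4 were higher and 4 lower with BMP4, where 4.86% of all genes were called higher and 4.39% lower, and at 96 h 10 were higher and 3 lower, beside 7.62% and 7.95%. Several are ligands of the members above. NPNT, nephronectin, the ligand of ITGA8, had 9.88, 10.9 and 9.09 CPM at 48 h with BMP4 and 0.354, 0.624 and 0.375 with Activin+BMP4 (22-fold higher; edgeR adjusted p = 1.13e-17). At that time ITGA8 was low in both conditions and lower with BMP4, as given above. FN1, fibronectin, the ligand of ITGA5, had 3010.0, 3275 and 3422 CPM at 48 h with BMP4 and 706, 705 and 732 with Activin+BMP4 (4.53-fold higher; adjusted p = 4.07e-19), while ITGA5 at that time was lower. By 96 h the FN1 difference was -0.10 ± 0.11 and not called. TNC, tenascin-C, a ligand of ITGA9, was lower with BMP4 at 48 h like ITGA9, at 55.9 ± 3.61 against 191 ± 13.7 CPM (log2 -1.77 ± 0.12).

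NID2, a nidogen that links laminin to collagen IV, had 127, 155 and 128 CPM at 96 h with BMP4 and 1.78, 2.14 and 4.98 with Activin+BMP4, against 6.91, 7.32 and 7.13 CPM in untreated cells. It was 45.8-fold higher with BMP4 than with Activin+BMP4 (log2 5.52 ± 0.18; edgeR adjusted p = 3.73e-27), and the untreated libraries lay between the conditions. Without Activin+BMP4 96 h replicate 3, the highest of its group, NID2 was 68.9-fold higher (log2 6.11). THBS1, thrombospondin, had 322, 253 and 155 CPM with BMP4 and 19.9, 18 and 19.1 with Activin+BMP4 (12.8-fold higher; adjusted p = 6.17e-26). SPP1, osteopontin, a ligand of ITGAV and ITGA9, was at 27.9 ± 6.69 against 5.38 ± 2.46 CPM. NTN4, a netrin that binds laminin gamma chains, was lower with BMP4, at 8.07, 7.53 and 7.24 CPM against 45.4, 50.6 and 49.1 CPM (log2 -2.67 ± 0.13; adjusted p = 7.12e-22).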

How the data were processed

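The deposited table holds whole-number counts per Ensembl gene for 51 libraries, made by the authors. cutadapt 1.5, STAR 2.5.2a, RSEM 1.3.0 and GRCh38 are named per the submitters' processing notes, without roles. Strand setting, annotation release and whether the counts are rounded estimates are not given in the sources used here. Symbols, types and exon lengths were taken from GENCODE 29 and gene name tables (98.1% of IDs had a symbol). Genes were filtered with filterByExpr (minimum count 10, minimum total 15), scaled by TMM (factors 0.966 to 1.03) and fitted with 1 mean per group over all libraries in edgeR 4.0.16 under R 4.3.3. The 17 comparisons were tested by edgeR's quasi-likelihood test with Benjamini-Hochberg adjustment over 19603 genes. The SE is the log2 fold change over the square root of F. Alternatives were other scaling, other filters, DESeq2 1.42.0, fits of fewer groups, a replicate block and leaving out libraries. A library stood apart when its chi-square over genes to each of the others of its group was at least 3 times that between those others. Counting intervals are 95% and cover counting error only. Members and lists were chosen with earlier results of these data known. Genes given with full values were called and had at least 5 CPM in the highest group compared. Up to 6 members each way were taken between conditions at 24, 48 and 96 h, 3 each way for the change and 4 each way against untreated at 96 h. Up to 5 genes of the partner list were taken at 48 h and at 96 h. No overlap between groups was also required, except for the change and the partner list. The partner picks FREM2 and NTN4 at 48 h and TGFB2 at 96 h are not given with values for those times. Other genes were chosen after their values were seen. Steps were tested on simulated data. The values of 1 member are not reported here, though it stays in the counts over all members.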

Additional observations from a re-analysis of the deposited data

Results flagged for a closer look

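The difference between BMP4 and Activin+BMP4 changed from 48 h to 96 h for 10 members by a test of the change itself (edgeR's quasi-likelihood test, adjusted over all genes, at least 2-fold), up for 7 and down for 3, where 7.22% of all genes were called up and 8.5% down. On the log2 scale the change was 6.80 for ITGA8, 2.33 for ITGA1, 2.02 for ITGA5, 1.92 for ITGA3, 1.90 for ITGA2, 1.85 for ITGA9 and 1.30 for ITGAV. It was -1.16 for LAMA2, -1.13 for ITGA2B and -1.01 for LAMA3. ITGA2B was under 2-fold without Activin+BMP4 96 h replicate 3, at -0.65. The LAMA3 call was lost in 7 fits that left out 1 library, at changes of -0.45 to -1.01, as well as with no filter and in a fit of the compared groups alone. With 3 libraries in a group no single library was tested as an outlier.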

How the results depend on the processing

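Of 112 calls of members over the 17 comparisons, 102 were tested under every alternative and 88 of these held under each. The other 10 were too low to be tested in a fit of only the groups compared, and 4 of them held elsewhere. Of the 112, 20 were lost when at least 1 library was left out and 10 under at least 1 other alternative. No value changed sign among the called results. Relative log expression factors lost 1 call, no scaling factors 1, no filter 5, the stricter filter 1, a fit of only the groups compared 3 of those still tested, DESeq2 2, and leaving out the 3 libraries that stand apart, an alternative chosen after seeing the data, 4. Counts of called members moved by over 1.5 times in few cases. With libraries left out in turn, the count at 12 h was 1 to 2 (1 with all libraries), at 36 h 1 to 2 (3 with all libraries) and for Activin+BMP4 6 h against untreated 1 to 3 (2 with all libraries). For Activin+BMP4 24 h against untreated it was 1 when the fit held the compared groups alone, where ITGB2 and ITGA11 were not tested, 3 in the fit of all groups and 2 to 3 under the others. The deviations of same-numbered replicates had correlations of -0.133 to 0.112 between conditions. Between differently numbered replicates of the 2 conditions the highest correlation was 0.201, at 72 h. The labels do not say whether the numbers pair samples, and beyond these correlations and the replicate block this was not tested. The replicate block lost 2 calls, ITGA11 at 36 h (adjusted p = 0.0507) and LAMA2 for Activin+BMP4 48 h against untreated (log2 change of 1.00), and no other. Members with few counts, such as ITGB3, ITGA8 and ITGB6 at 48 h or before, are limited by depth.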
